A study of Mus musculus with 24 samples.

Results

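The levels of 9 genes that encode plasma proteins of the liver were followed in whole mouse kidneys at embryonic day 18.5. They are the 3 fibrinogen chain genes Fga, Fgb and Fgg, the serum albumin gene Alb, the alpha-fetoprotein gene Afp, the apolipoprotein A-I gene Apoa1 and the alpha-1 antitrypsin genes Serpina1a, Serpina1b and Serpina1d. These are 9 of the 54393 genes in the count tables. They were chosen because Fgb was higher in Dmrt2 KO kidneys and Serpina1a was higher in the libraries labelled 3XKO, so all member values in those 2 comparisons are given as a description, and no test of a member is read there. The Hmx3; Hmx2 comparison played no part in the choice, and there the members were tested.

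Fibrinogen is a plasma glycoprotein made of paired Aα, Bβ and γ chains, encoded by Fga, Fgb and Fgg, which thrombin cleaves to form the fibrin mesh of a clot. In the liver the 3 chain genes are expressed together and respond to interleukin-6 as part of the acute phase response. Albumin, alpha-fetoprotein, apolipoprotein A-I and the alpha-1 antitrypsins are likewise released by hepatocytes, and Afp is also made by the yolk sac. Transcription factors such as HNF4α act in hepatocytes and in the kidney proximal tubule alike.

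RNA of whole kidneys was sequenced after poly(A) selection, with 150 bp reads, in 24 libraries from 3 mouse lines, and the study asked how Dmrt2, Hmx2 and Hmx3 direct the kinds of intercalated cells in the collecting duct. The 6 groups were Dmrt2 KO (3 libraries) and Dmrt2 control (3), of the strain labelled Dmrt2; Hmx3; Hmx2 KO (6) and Hmx3; Hmx2 control (6), of the strain labelled Hmx2/Hmx3; and 3XKO, a knockout of Dmrt2, Hmx3 and Hmx2 (3), and 3XKO control (3), of the strain labelled Dmrt2/Hmx2/Hmx3. Controls were littermates. Hmx3; Hmx2 control replicates 1 to 3 are also labelled WT, and the genotype of the other controls is not given in the labels. The labels describe no allele or deleted exon, name no genetic background beyond the strain labels, and do not state that libraries were made from different embryos. The p-values therefore describe the spread among these libraries, which may be technical in part. Y-linked transcripts were present in some libraries and absent in others of every group but Dmrt2 control. Those groups thus held more than 1 embryo, but whether each library came from its own embryo is not given.

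Libraries held 52286824 to 127339273 counted reads, so that 3 reads, taken here as the floor of detection, equalled 0.0236 to 0.0574 CPM (the reads of a gene scaled to the total of its library). Of the 216 member counts, 183 were even numbers, as were 68.7% to 76.7% of the counts above 0 of all genes in a library. Where both mates of a read pair were counted, the floor and the read numbers given below stand for fewer fragments than reads. The floor covers counting error only, whereas the SEs and 95% intervals of fold changes come from the fits and include the spread between libraries. Dmrt2 itself was at 2.19, 2.26 and 1.57 CPM in Dmrt2 KO kidneys, against 12.4, 13.9 and 14.8 CPM in Dmrt2 control kidneys. Hmx2 was at 0 to 0.0606 CPM in Hmx3; Hmx2 KO kidneys and 1.57 to 2.27 CPM in Hmx3; Hmx2 control kidneys. In the libraries labelled 3XKO, Hmx2 was at 0 to 0.0213 CPM against 2.32 to 3.27 CPM in 3XKO control kidneys, but Dmrt2 was at 18.6 ± 0.984 CPM in 3XKO, against 11.4 ± 0.779 CPM in 3XKO control (SD, n = 3 each), so on transcript level Dmrt2 went against the label there. Y-linked transcripts were present in 1 of 3 Dmrt2 KO and 3 of 3 Dmrt2 control libraries, in 2 of 6 Hmx3; Hmx2 KO and 4 of 6 Hmx3; Hmx2 control libraries, and in 2 of 3 libraries of both 3XKO and 3XKO control. Kidney markers (9 genes, among them Umod, Slc12a1, Nphs1, Aqp2 and Six2) were all detected in every library, at a summed level of 2473 to 2951 CPM. In the Hmx3; Hmx2 line, 5 libraries stood apart by many of their liver-type transcripts. They were KO replicates 1, 2 and 3 and control replicates 1 and 2. Member levels and fold changes that rest on these libraries are given with and without them. In these bulk samples, fewer cells of a type and less RNA per cell cannot be told apart.

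The promoter sequences below show what the fibrinogen genes have in common and where they differ. Each is the 250 bases before the RefSeq transcription start on GRCm38.p6, 5′ to 3′ on the gene's strand, and all 9 members matched an entry of the RefSeq promoter table by symbol. Capitals mark the interleukin-6 response element (CTGGGAA, or TTCCCAG on the other strand). The first line is Fgg at chr3:83007474-83007723 (+ strand), the next Fga at chr3:83025903-83026152 (+ strand) and the last Fgb at chr3:83049864-83050113 (- strand).
Fgg: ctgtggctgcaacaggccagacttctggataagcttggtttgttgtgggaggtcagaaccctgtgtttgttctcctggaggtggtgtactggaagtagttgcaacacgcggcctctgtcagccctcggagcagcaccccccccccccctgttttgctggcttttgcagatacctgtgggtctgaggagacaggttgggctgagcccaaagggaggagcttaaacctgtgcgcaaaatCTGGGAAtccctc
Fga: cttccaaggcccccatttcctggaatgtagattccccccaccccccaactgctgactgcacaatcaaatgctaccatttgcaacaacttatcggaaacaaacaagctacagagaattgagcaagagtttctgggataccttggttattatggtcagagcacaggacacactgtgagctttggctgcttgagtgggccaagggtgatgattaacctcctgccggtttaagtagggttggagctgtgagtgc
Fgb: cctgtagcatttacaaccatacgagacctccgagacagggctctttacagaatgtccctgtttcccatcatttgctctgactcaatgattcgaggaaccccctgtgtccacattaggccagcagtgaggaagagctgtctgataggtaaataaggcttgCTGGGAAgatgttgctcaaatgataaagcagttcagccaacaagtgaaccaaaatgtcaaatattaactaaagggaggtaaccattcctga

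Within the window from 250 bases before to 50 bases after the start, searched on both strands, the letters of the interleukin-6 response element were in 2 of the 9 members, in Fgg, beginning 13 bases before the start, and in Fgb, beginning 91 bases before it. They were in 11.1% of all 32851 promoters of that length. Fga held no such match in this window. The letters of a TATA box (TATAAA, or TTTATA on the other strand) were in Afp alone among the members, beginning 7 bases before the start. They were in 13.6% of all promoters. These matches are letters in a window, and no binding was measured.

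The Serpina1 genes are near-identical in their coding sequence. Over 1242 coding bases, Serpina1a and Serpina1b were 97.0% identical with 37 differences, Serpina1a and Serpina1d 96.6% with 42, and Serpina1b and Serpina1d 96.5% with 43. The stretch below, coding bases 1088 to 1147 of GENCODE transcripts on GRCm38, encodes the reactive-centre loop, the part of the inhibitor that a protease cleaves. It holds 12 of the 61 positions at which the 3 genes are not all alike, and capitals mark those positions.
Serpina1a: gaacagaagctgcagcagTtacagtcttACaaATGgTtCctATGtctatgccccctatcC
Serpina1b: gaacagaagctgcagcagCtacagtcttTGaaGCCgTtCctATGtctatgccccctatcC
Serpina1d: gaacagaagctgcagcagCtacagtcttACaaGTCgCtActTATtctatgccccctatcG
Of the 150-base windows along the longest transcript, 40.7% in Serpina1a, 16.4% in Serpina1b and 23.3% in Serpina1d were also present in another gene's transcripts, and 0.0% in each of the other 6 members. The file headers list no option to count reads that map to several places, and the annotated span of Serpina1b (mm39 chr12:103694415-103796632) encloses Serpina1d (chr12:103729853-103739851), so the values of the 3 Serpina1 genes are uncertain.

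All 9 members passed the filter on low counts in all 3 fits, but their levels differed widely. Per kilobase of exon, the mean over 24 libraries was highest for Afp at 31.0 CPM per kb, which put Afp above 95.6% of detected genes. Serpina1a followed at 4.16, Alb at 2.94, Serpina1b at 2.35, Fga at 1.35, Fgb at 1.04, Apoa1 at 0.748, Serpina1d at 0.338 and Fgg at 0.186 CPM per kb. The place of Alb rests on the 5 libraries apart. Over the other 19 libraries Alb averaged 0.776 CPM per kb, below Serpina1b (2.20), Fga (1.21) and Fgb (0.919), while the others kept their order. Fgg, the γ chain gene, had the lowest level per length of the 9, at 0.108 CPM per kb over those 19 libraries. The highest library of Alb was 132 times the lowest in CPM over all 24 libraries and 23.1 times over the 19. For Fgg, with a library at 0 reads, the highest was at least 25.9 times the floor of that library, and over the 19 libraries at least 12.6 times. Serpina1d ranged over 24.3 times and Apoa1 over 17.8 times, or 7.87 and 7.40 times over the 19. Serpina1b, Serpina1a and Afp varied least, by 2.28, 2.49 and 2.81 times.

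**Figure D1:**
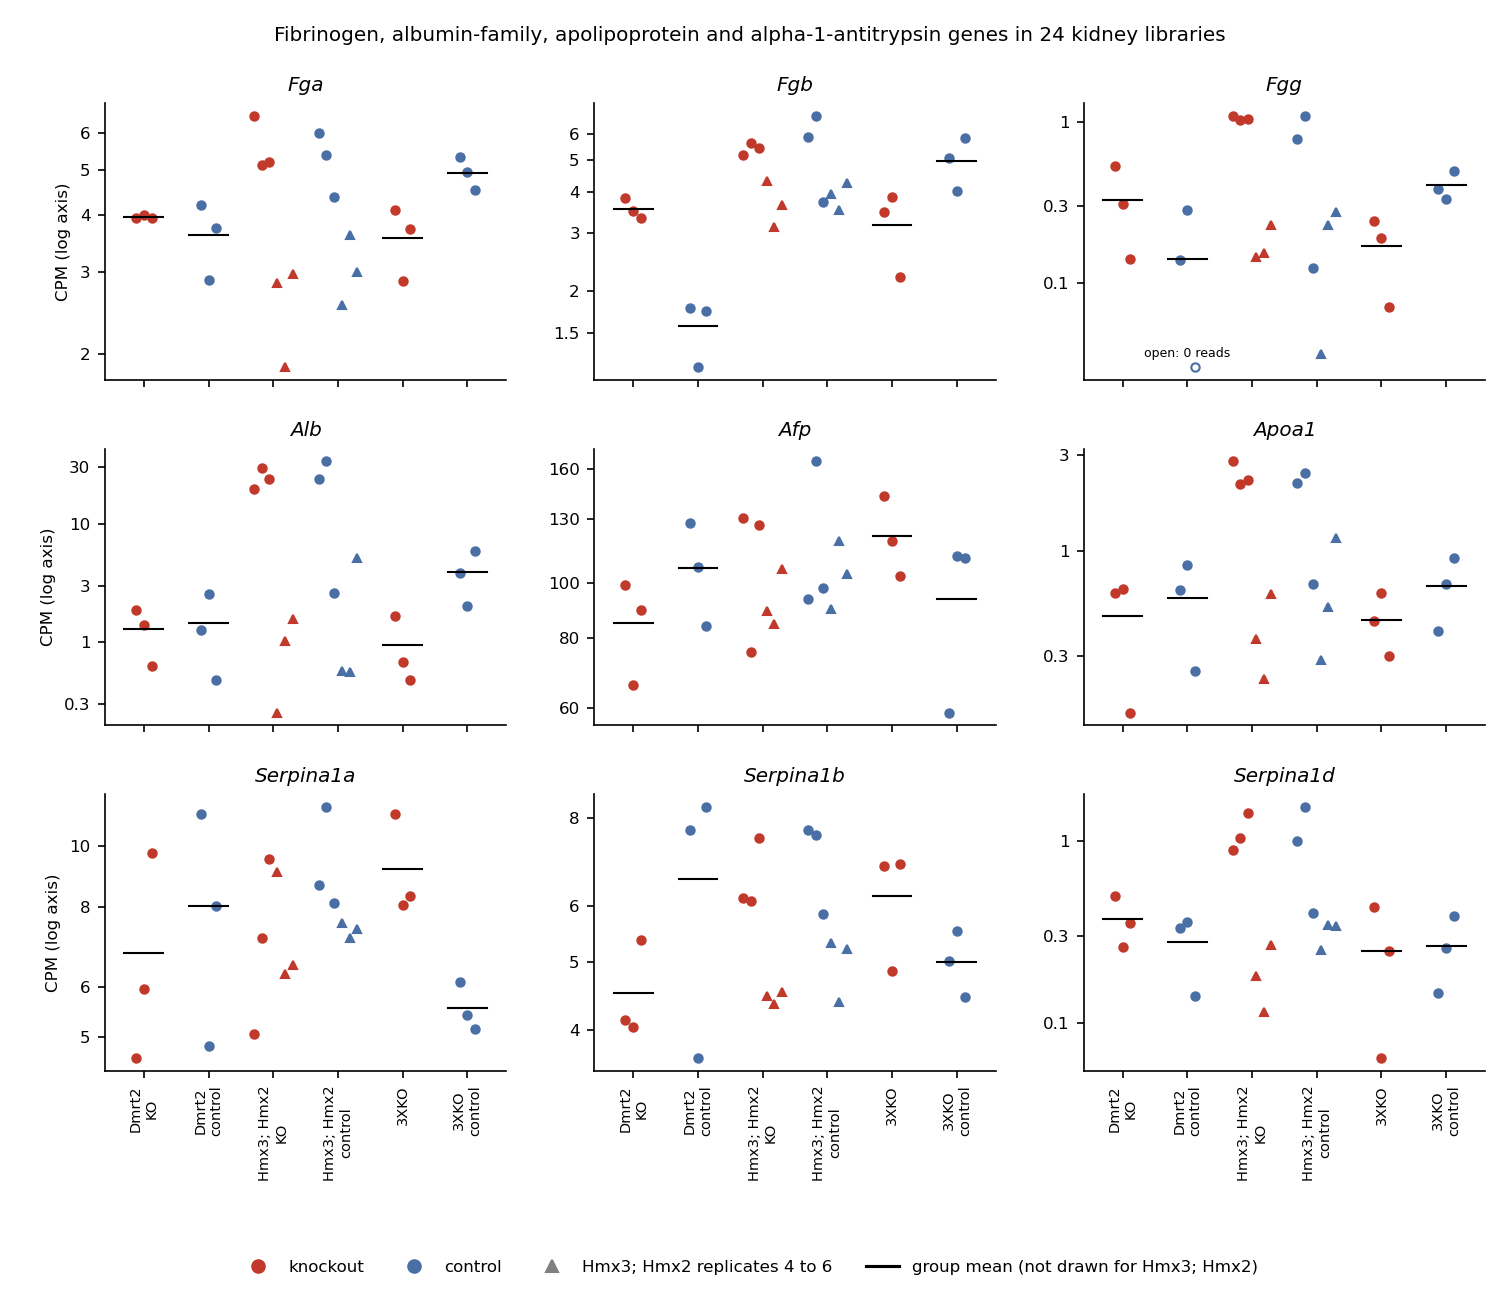
Level of each of the 9 members in every library, in CPM on a log axis, with knockout libraries left of the controls of the same line. Alb, Fgg, Apoa1 and Serpina1d split the Hmx3; Hmx2 libraries into a high set and a low set, and Fgb lies below 2 CPM in the 3 Dmrt2 control libraries alone.

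The 3 fibrinogen genes lie side by side on mm39 chromosome 3, Fgg at chr3:82915031-82922356 (+ strand), Fga at chr3:82933383-82940934 (+ strand) and Fgb at chr3:82947448-82957170 (- strand), with 11026 bases between Fgg and Fga and 6513 bases between Fga and Fgb. In Dmrt2 KO kidneys Fgb, the Bβ chain gene, was higher than in controls, whereas Fga, the Aα chain gene, had nearly the same level. Fgb was at 3.84, 3.51 and 3.35 CPM in Dmrt2 KO kidneys, against 1.78, 1.18 and 1.74 CPM in Dmrt2 control kidneys. The groups did not overlap, and the log2 fold change was 1.18 ± 0.19 (SE, n = 3 each). Fga was at 3.93, 4.00 and 3.94 CPM in Dmrt2 KO kidneys, against 4.20, 2.88 and 3.74 CPM in Dmrt2 control kidneys, and the KO values lay within the range of the controls. Its log2 fold change was 0.13 ± 0.16. Fgg was at 0.532, 0.309 and 0.141 CPM in Dmrt2 KO kidneys, against 0.139, 0.282 and 0 CPM in Dmrt2 control kidneys. The groups overlapped, and the fitted log2 fold change of 1.14 ± 0.87 rests on 36, 19 and 18 reads in Dmrt2 KO and 10, 22 and 0 reads in Dmrt2 control, where the floor of the library without a read was 0.0422 CPM.

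Across the 6 groups the mean level of Fgb was 4.97 CPM in 3XKO control, 4.70 in Hmx3; Hmx2 control, 4.57 in Hmx3; Hmx2 KO, 3.57 in Dmrt2 KO, 3.19 in 3XKO and 1.57 CPM in Dmrt2 control. Neighbours in this order overlapped, except that the highest Dmrt2 control library (1.78 CPM) lay below the lowest of the other 21 libraries (2.21 CPM, a library labelled 3XKO). The Dmrt2 control level was thus the one apart from the rest, while the Dmrt2 KO level lay within the range of the other lines. The ratio of Fgb to Fga, both per kb, was 0.670 to 0.772 in Dmrt2 KO and 0.324 to 0.368 in Dmrt2 control. It was 0.627 to 1.32 in Hmx3; Hmx2 KO and 0.677 to 1.22 in Hmx3; Hmx2 control, and 0.468 to 1.07 in 3XKO and 0.643 to 1.02 in 3XKO control. These levels are set across 4 tables counted in separate runs.

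Among the genes whose coordinates lie within 500 kb of the fibrinogen genes, 14 were in the tables and 5 passed the filter in the Dmrt2 fit. Of the 5, 1 fell, Rbm46, which encodes an RNA-binding protein known from meiotic germ cells and lies at chr3:82744535-82783790 (- strand), 131 kb from Fgg. It was at 0.887, 0.991 and 1.03 CPM in Dmrt2 KO kidneys, against 3.23, 2.88 and 3.53 CPM in Dmrt2 control kidneys, a log2 fold change of -1.73 ± 0.19 (edgeR, adjusted p = 0.00109). As for Fgb, the Dmrt2 control level was unlike that of Hmx3; Hmx2 KO kidneys (0.724 to 1.68 CPM) and Hmx3; Hmx2 control kidneys (0.722 to 1.86 CPM), but in the opposite direction. In the libraries labelled 3XKO, Rbm46 was at 3.74, 1.40 and 3.21 CPM against 0.906, 1.40 and 1.29 CPM in 3XKO control kidneys, a log2 fold change of 1.20 ± 0.35 that did not pass (edgeR, adjusted p = 0.145). The Rbm46 call in Dmrt2 KO ended when the presence of Y-linked transcripts was added to the fit (log2 fold change -1.87, edgeR, adjusted p = 0.0876). The other 4 neighbours were not called, namely Plrg1, a splicing factor gene 5.66 kb from Fgb (log2 fold change 0.04), Npy2r (0.05), Lrat (-0.60) and Dchs2 (0.63). Within 20 Mb on each side of the fibrinogen genes, 13 of 413 tested genes were called in Dmrt2 KO, 8 higher and 5 lower, where 88 of all 19807 tested genes (0.444%) were called. No such gene was called in Hmx3; Hmx2 KO, where 4 of 19050 were called in all, and 7 of 454 were called in the libraries labelled 3XKO, where 222 of 21537 (1.03%) were called. Chromosome 3 held 20.5% of the called and 5.12% of the tested genes in Dmrt2 KO, and 5.41% of the called and 5.30% of the tested genes in 3XKO. Fgb is itself among the called genes of chromosome 3 in Dmrt2 KO. The part of chromosomal position in these differences was not tested.

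In the libraries labelled 3XKO, in which Dmrt2 transcript was not lower than in controls, all 3 fibrinogen genes and Alb were lower in every library than in every 3XKO control library. Of all 21537 tested genes, 8.92% were lower in this way. Fga was at 4.09, 2.87 and 3.73 CPM in 3XKO, against 5.33, 4.95 and 4.52 CPM in 3XKO control, a log2 fold change of -0.49 ± 0.15 (SE, n = 3 each). Fgb was at 3.48, 3.87 and 2.21 CPM in 3XKO, against 5.07, 4.03 and 5.82 CPM in 3XKO control, a log2 fold change of -0.66 ± 0.22. The Fgb groups were separated by little, with a highest 3XKO library of 3.87 CPM beside a lowest control of 4.03 CPM. Fgg was at 0.243, 0.191 and 0.0708 CPM in 3XKO, against 0.380, 0.333 and 0.497 CPM in 3XKO control, a log2 fold change of -1.29 ± 0.48 that rests on 8 to 24 reads in 3XKO and 36 to 54 reads in 3XKO control. Fgb was therefore above its own controls in Dmrt2 KO and below them in 3XKO.

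Alb encodes serum albumin, which carries fatty acids, hormones and drugs in plasma. In the libraries labelled 3XKO it was at 1.68, 0.681 and 0.478 CPM, against 3.84, 2.02 and 5.89 CPM in 3XKO control, a log2 fold change of -2.07 ± 0.64 with no overlap. In Dmrt2 KO kidneys Alb was at 1.89, 1.40 and 0.628 CPM, against 1.28, 2.57 and 0.478 CPM in Dmrt2 control, and the groups overlapped with a log2 fold change of -0.18 ± 0.69. Afp, the fetal counterpart of albumin and its neighbour on chromosome 5 (chr5:90638596-90656766, + strand, beside Alb at chr5:90608756-90624461, + strand), was not lower in the same libraries. Afp was at 143, 119 and 103 CPM in 3XKO, against 58.9, 112 and 111 CPM in 3XKO control, with overlap and a log2 fold change of 0.35 ± 0.32. Its Dmrt2 KO values of 99.5, 65.9 and 89.6 CPM likewise overlapped the Dmrt2 control values of 128, 107 and 84.1 CPM, with a log2 fold change of -0.33 ± 0.22. Apoa1, at chr9:46139878-46141764 (+ strand), encodes the main protein of high-density lipoprotein. It was at 0.157 to 0.650 CPM in Dmrt2 KO and 0.253 to 0.847 CPM in Dmrt2 control, and at 0.301 to 0.617 CPM in 3XKO and 0.398 to 0.920 CPM in 3XKO control, with overlap in both lines and log2 fold changes of -0.34 ± 0.57 and -0.58 ± 0.37.

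Serpina1a, an inhibitor of neutrophil elastase of the alpha-1 antitrypsin family, was higher in the libraries labelled 3XKO. It was at 11.2, 8.07 and 8.33 CPM in 3XKO, against 6.11, 5.42 and 5.16 CPM in 3XKO control, a log2 fold change of 0.70 ± 0.14 (SE, n = 3 each) with no overlap. In Dmrt2 KO kidneys it was at 4.64, 5.95 and 9.73 CPM, against 11.2, 4.85 and 8.03 CPM in Dmrt2 control, and the wide ranges overlapped (log2 fold change -0.24 ± 0.42). Group means of Serpina1a were 9.19 CPM in 3XKO, 8.41 in Hmx3; Hmx2 control, 8.02 in Dmrt2 control, 7.27 in Hmx3; Hmx2 KO, 6.77 in Dmrt2 KO and 5.56 CPM in 3XKO control, and each neighbouring pair in this order overlapped. Its copies did not show the same separation. Serpina1b was at 6.85, 4.85 and 6.88 CPM in 3XKO, against 5.02, 5.53 and 4.46 CPM in 3XKO control (log2 fold change 0.28 ± 0.15), and at 4.14, 4.04 and 5.37 CPM in Dmrt2 KO, against 7.69, 3.65 and 8.30 CPM in Dmrt2 control (-0.54 ± 0.30). Serpina1d was at 0.0638 to 0.436 CPM in 3XKO and 0.145 to 0.386 CPM in 3XKO control (-0.10 ± 0.61), and at 0.260 to 0.502 CPM in Dmrt2 KO and 0.141 to 0.359 CPM in Dmrt2 control (0.41 ± 0.45). The groups of both copies overlapped in both lines.

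Of the 9 members, 1 was called in Dmrt2 KO (Fgb, higher), where 0.444% of 19807 tested genes were called, 0.187% higher and 0.257% lower, at an adjusted p under 0.05. Fgb lay above its controls in every Dmrt2 KO library and no member lay below them in every library, where 18.2% of tested genes did not overlap, 10.7% above and 7.42% below the controls. In the libraries labelled 3XKO, 1 member was called (Serpina1a, higher), where 1.03% of 21537 tested genes were called, 0.585% higher and 0.446% lower. There 1 member lay above and 4 lay below the controls in every library, where 23.2% of tested genes did not overlap, 14.2% above and 8.92% below the controls. Since the members were chosen for Fgb in the first comparison and Serpina1a in the second, both counts were fixed by the choice and nothing is read from them. The median log2 fold change of the members was -0.18 in Dmrt2 KO and -0.49 in 3XKO, where that of all tested genes was -0.00 and 0.00.

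**Figure D2:**
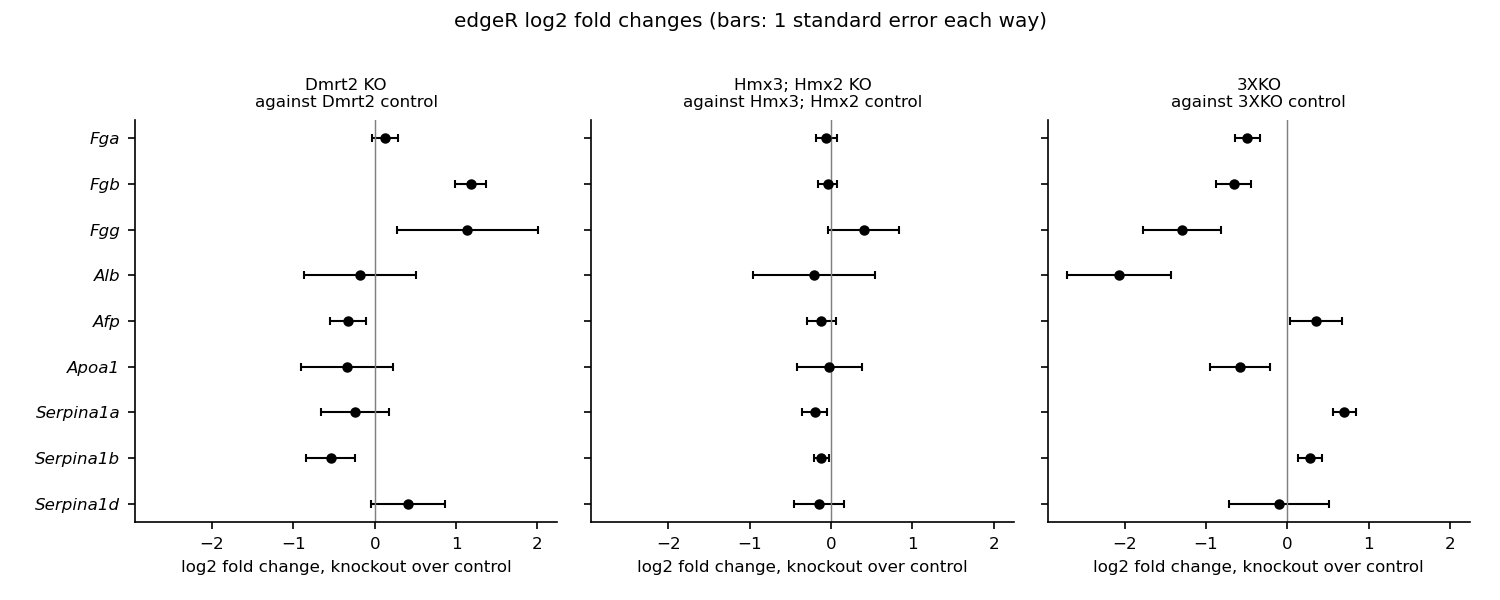
Log2 fold change of each member, knockout over control of the same line, with bars of 1 SE from edgeR. The Dmrt2 and 3XKO values are a description, since members were chosen on them; in Hmx3; Hmx2 all 9 values lie between -0.21 and 0.40 and none passed the test.

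In the Hmx3; Hmx2 line, where the choice of members played no part, none of the 9 was found to differ between KO and control. By edgeR with the deposited table as a term, 0 of 9 members passed an adjusted p of 0.05, 0 of 9 an unadjusted p of 0.05, and DESeq2 called 0. Of all 19050 tested genes, 0.0210% were called (0.00525% higher and 0.0157% lower) and 4.93% had an unadjusted p under 0.05. All 9 members overlapped between the groups, as did all but 0.0682% of tested genes (0.0157% above and 0.0525% below the controls in every library). Fgb had 4.57 ± 1.02 CPM in KO kidneys and 4.70 ± 1.34 CPM in control kidneys (SD, n = 6 each), a log2 fold change of -0.04 with a 95% interval of -0.30 to 0.22 (edgeR, adjusted p = 0.986). Fga had 4.09 ± 1.79 CPM in KO and 4.16 ± 1.36 CPM in control, a log2 fold change of -0.06 with an interval of -0.35 to 0.22 (edgeR, adjusted p = 0.981). The 95% intervals left out a log2 change of 1 in either direction for these 2 genes and for Serpina1a (-0.53 to 0.13), Serpina1b (-0.30 to 0.06), Afp (-0.54 to 0.29), Serpina1d (-0.81 to 0.50) and Apoa1 (-0.89 to 0.86). They did not do so for Fgg (-0.53 to 1.34) and Alb (-1.89 to 1.48), whose libraries spread most. All these intervals include the 5 libraries apart. For Serpina1d and Apoa1 the log2 fold changes were -0.73 and -0.71 with replicates 4 to 6 alone, and 0.19 and 0.46 with replicates 1 to 3 alone. No interval is given for either set, so a log2 change of 1 is not left out there.

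The Hmx3; Hmx2 libraries came in 2 tables, replicates 1 to 3 and replicates 4 to 6, and Alb, Fgg, Apoa1 and Serpina1d were far higher in 5 of the 6 libraries of the first. Alb was at 19.8, 29.6 and 23.7 CPM in KO replicates 1 to 3 and at 0.255, 1.03 and 1.56 CPM in KO replicates 4 to 6. In control replicates 1 to 3 it was at 23.7, 33.7 and 2.61 CPM, and in control replicates 4 to 6 at 0.575, 0.558 and 5.10 CPM. Control replicate 3 was thus far below the other libraries of its table, and control replicate 6 was the highest of its own. Mean Alb was 25.7 times as high in KO replicates 1 to 3 as in KO replicates 4 to 6, and 9.63 times as high in the matching controls.

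Fgg, Apoa1 and Serpina1d had the same split. Fgg was at 1.09, 1.03 and 1.04 CPM in KO replicates 1 to 3 and at 0.145, 0.153 and 0.229 CPM in KO replicates 4 to 6, with 0.782, 1.09 and 0.124 CPM in control replicates 1 to 3 and 0.0360, 0.230 and 0.274 CPM in control replicates 4 to 6. The means of KO replicates 1 to 3 were 6.00, 5.99 and 6.00 times those of KO replicates 4 to 6 for Fgg, Apoa1 and Serpina1d. Fga (2.19 times), Serpina1b (1.48 times) and Fgb (1.46 times) differed less, and Afp (1.19 times) and Serpina1a (0.994 times) little. In all, 7 of 9 members were higher in each of KO replicates 1 to 3 than in each of KO replicates 4 to 6 and none was lower, where 18.3% of tested genes were higher and 16.1% lower in this way. Genotype did not enter this comparison of KO libraries.

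**Figure D3:**
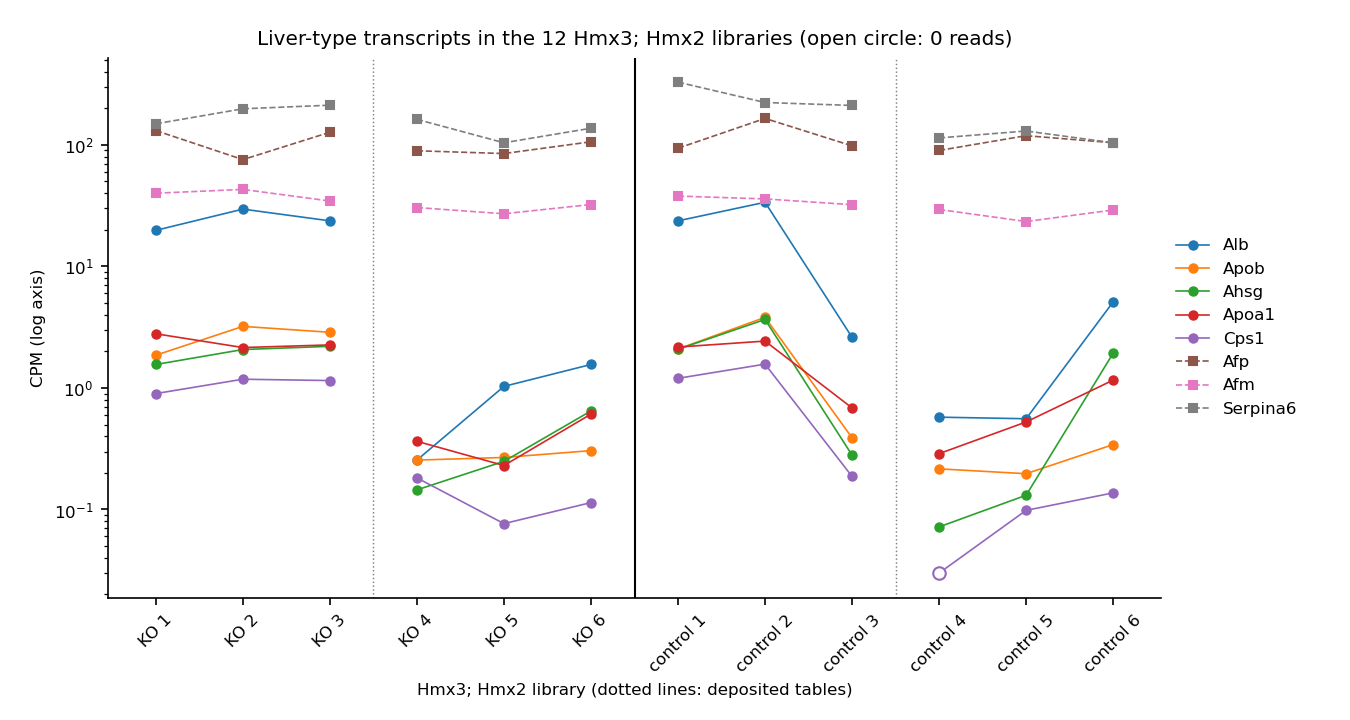
Level in CPM, on a log axis, of liver-type transcripts in the 12 Hmx3; Hmx2 libraries, with KO libraries left of controls and the 2 deposited tables apart. KO replicates 1 to 3 and control replicates 1 and 2 are high, whereas control replicate 3 and most libraries of the other table are low. Not all liver-type transcripts had this split. Mean Ttr was 13.7 CPM in KO replicates 1 to 3 and 28.4 CPM in KO replicates 4 to 6, and Afp and Serpina1a differed little.

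Transcripts of many other hepatocyte genes moved with Alb across these libraries, but not all did. Apob, Ttr, Serpina3k, Cyp3a11, Tdo2 and Hpd are named here after their values were seen. Ttr went the other way, with a mean of 13.7 CPM in KO replicates 1 to 3 and 28.4 CPM in KO replicates 4 to 6. In the matching controls its means were 9.28 and 22.1 CPM. Apob, the apolipoprotein of low-density lipoprotein, was at 1.86, 3.21 and 2.87 CPM in KO replicates 1 to 3, 0.255, 0.268 and 0.305 CPM in KO replicates 4 to 6, 2.09, 3.81 and 0.389 CPM in control replicates 1 to 3 and 0.216, 0.197 and 0.342 CPM in control replicates 4 to 6. Cps1, the entry enzyme of the urea cycle, was at 0.899 to 1.18 CPM in KO replicates 1 to 3, against 1.20, 1.57 and 0.187 CPM in control replicates 1 to 3, and at 0.0765 to 0.182 CPM in KO replicates 4 to 6 and 0 to 0.137 CPM in control replicates 4 to 6. Serpina3k and the cytochrome gene Cyp3a11 were both at 0 reads in KO replicates 4 to 6 and at 0.353 to 1.30 CPM in KO replicates 1 to 3. Of 26 other liver-secreted genes tested, 19 were higher in each of KO replicates 1 to 3 than in each of replicates 4 to 6. None of the 26 was lower in this way. Of the hepatocyte enzymes 3 of 6 were higher (Cps1, Tdo2 and Hpd) and 0 lower. Of all tested genes, 18.3% were higher and 16.1% lower in this way. The mean of Cyp2e1, of the same enzyme list, was 6.96 CPM in KO replicates 1 to 3 and 9.08 CPM in KO replicates 4 to 6.

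Summed over 10 hepatocyte enzyme genes (the list of 12 without Cyp2e1 and Arg1, which were left out after their kidney levels were seen), the level was 3.50, 3.97 and 4.66 CPM in KO replicates 1 to 3 and 4.13 and 5.82 CPM in control replicates 1 and 2. In the other Hmx3; Hmx2 libraries it was 0.306 to 0.691 CPM in KO and 0.431 to 0.996 CPM in control. The sum was 0.322 to 0.946 CPM in Dmrt2 KO and 0.529 to 1.10 CPM in Dmrt2 control, and 0.606 to 0.708 CPM in 3XKO and 0.487 to 0.573 CPM in 3XKO control. Of these 10 genes, 3 to 6 were at 0 reads in each library of the Dmrt2 and 3XKO lines, and Otc, Tat, Cyp3a11 and Cyp3a16, likewise named after their values were seen, were at 0 reads in all 6 libraries of the 3XKO line. The full list of 12 did not separate the libraries in this way. All 12 genes summed to 9.66, 13.5 and 12.5 CPM in KO replicates 1 to 3 and 13.7, 7.19 and 9.64 CPM in KO replicates 4 to 6, and to 13.3, 17.1 and 8.09 CPM in control replicates 1 to 3 and 12, 7.15 and 11.1 CPM in control replicates 4 to 6, so that KO replicate 4 had the highest sum of the KO libraries. They summed to 5.00 to 7.71 CPM in Dmrt2 KO and 8.65 to 10.8 CPM in Dmrt2 control, and to 3.39 to 3.93 CPM in 3XKO and 3.47 to 8.74 CPM in 3XKO control. The part of hepatocyte transcripts in the member values was not tested.

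With replicates 4 to 6 alone, which hold none of the 5 libraries apart, the log2 fold changes of KO over control were -1.12 for Alb, -0.73 for Serpina1d, -0.71 for Apoa1, -0.25 for Fga, -0.15 for both Afp and Serpina1b, -0.07 for Fgb, -0.04 for Fgg and -0.01 for Serpina1a. With replicates 1 to 3 alone they were 0.30 for Alb, 0.19 for Serpina1d, 0.46 for Apoa1, 0.11 for Fga, -0.08 for Afp, -0.09 for Serpina1b, -0.00 for Fgb, 0.65 for Fgg and -0.38 for Serpina1a. No member was called in either set. The effect in replicates 4 to 6 minus that in replicates 1 to 3 ran from -1.42 ± 1.58 for Alb to 0.38 ± 0.30 for Serpina1a (log2, ± SE), and no member differed (edgeR interaction, adjusted p = 1.000 for each). Of 19050 genes, 0 were called for this interaction, 404 (2.12%) were below an unadjusted p of 0.05, while DESeq2 made 1 call. The fitted Alb value over all 12 libraries (-0.21 ± 0.75) went with a plain KO mean (12.7 CPM) that was above the control mean, since the fit takes the 2 tables separately.

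Related genes were counted in 5 lists beside the members, namely liver-secreted proteins, the other Serpina1 genes, coagulation and fibrinolysis, acute phase response and hepatocyte transcription factors. In Dmrt2 KO none of 68 tested list genes passed (edgeR; DESeq2 called Afm higher and Ttr and Cp lower), and 12 had an unadjusted p under 0.05, beside 12.3% of all tested genes. In Hmx3; Hmx2 KO none of 72 passed (edgeR; DESeq2 0), and 7 had an unadjusted p under 0.05, beside 4.93% of all tested genes. In the libraries labelled 3XKO, 0 rose and 4 fell of 73 (edgeR; DESeq2 2 higher and 5 lower), beside the 1.03% of all tested genes called, and 21 had an unadjusted p under 0.05, beside 17.9% of all tested genes. Of the 4 that fell, 3 belong to the 20 tested coagulation genes. Plat, the tissue plasminogen activator that turns plasminogen into the clot-dissolving plasmin, was at 105, 107 and 104 CPM in 3XKO, against 119, 129 and 127 CPM in 3XKO control (log2 fold change -0.27, edgeR, adjusted p = 0.0275). The fibrinogen-like genes Fgl1 (0.952, 1.57 and 1.03 CPM in 3XKO, against 2.32, 2.29 and 2.59 CPM in 3XKO control; log2 fold change -1.05, edgeR, adjusted p = 0.0489) and Fgl2 (13.3, 13.6 and 12.8 CPM, against 18.6, 19.9 and 17.1 CPM; -0.51, adjusted p = 0.0231) encode a hepatokine and a membrane-bound prothrombinase of macrophages. The macrophage marker list had a median log2 fold change of -0.31 in these libraries, with no marker called by edgeR, and its part in the Fgl2 value was not tested.

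The other gene that fell was Hp, 1 of 13 tested acute phase genes, which encodes haptoglobin, the scavenger of free haemoglobin. It was at 1.24, 0.915 and 1.04 CPM in 3XKO, against 3.46, 3.44 and 2.00 CPM in 3XKO control, a log2 fold change of -1.50 ± 0.24 (edgeR, adjusted p = 0.0206). Each of these 4 calls depended on single libraries. Without 3XKO replicate 3 the adjusted p was 0.123 for Plat, 0.179 for Fgl1, 0.118 for Fgl2 and 0.118 for Hp, and without 3XKO control replicate 2 it was 0.0919, 0.106, 0.0742 and 0.0528 in the same order (edgeR). Plat was also lost without 3XKO replicate 1 (0.0788) and 2 (0.0705), Hp without 3XKO replicate 2 (0.0686), and Fgl1 in all fits but the one without 3XKO replicate 2 (0.0648 to 0.179). All 4 folds stayed below 0 in these fits.

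The most abundant genes of the lists, named by level, are those that the kidney expresses strongly. Hnf4a (mean 326 CPM over 24 libraries), a transcription factor that binds the promoters of many liver genes, had log2 fold changes of 0.03 in Dmrt2 KO, 0.01 in Hmx3; Hmx2 KO and -0.12 in 3XKO and passed in none of them. Il6st (276 CPM) and Stat3 (98.8), the signalling subunit and transcription factor of the interleukin-6 pathway, and its feedback inhibitor Socs3 (19.1) had log2 fold changes of -0.17 to 0.09 with no call, and are named beside Hp, the called gene of their list, for their level. Of the liver-secreted list, corticosteroid-binding globulin gene Serpina6 (162 CPM), Serpinf1 (41.2) and Afm (36.1) were the most abundant, and none of these was called by edgeR, while DESeq2 called Afm higher in Dmrt2 KO (log2 fold change 0.46, edgeR, adjusted p = 0.160). Of the Serpina1 copies, Serpina1f averaged 0.681 CPM, Serpina1e 0.21 and Serpina1c 0.0382. In 3XKO, Serpina1e (-2.50) and Serpina1f (-1.10) were lower in every library than in every 3XKO control library, as were 8.92% of all tested genes. They did not pass (edgeR, adjusted p = 0.202 and 0.130). The Serpina1e value rests on 8, 10 and 0 reads in 3XKO against 52, 12 and 49 reads in 3XKO control, so its groups were barely apart. The direction of both was opposite to that of Serpina1a, with which these copies share part of their sequence. The median log2 fold change of the liver-secreted list was 0.00 in Dmrt2 KO, 0.05 in Hmx3; Hmx2 KO and 0.00 in 3XKO, beside -0.00, -0.01 and 0.00 over all tested genes.

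Markers of other cell types that a kidney sample could hold were called in no comparison by edgeR (45, 49 and 48 tested genes in Dmrt2 KO, Hmx3; Hmx2 KO and 3XKO; 9, 2 and 11 at an unadjusted p under 0.05; DESeq2 called 0 higher and 5 lower, 0, and 3 higher and 4 lower). Their summed levels overlapped between knockout and control in every line, except for the hepatocyte enzymes. The sum of 10 hepatocyte enzyme genes lay above the controls in every 3XKO library (0.606 to 0.708 against 0.487 to 0.573 CPM). The sum of all 12 lay below the controls in every Dmrt2 KO library (5.00 to 7.71 against 8.65 to 10.8 CPM). Erythroid markers, led by Hba-a1, Hbb-bs and Hba-a2, summed to 1067 to 1229 CPM in Dmrt2 KO and 958 to 1312 CPM in Dmrt2 control, and to 1009 to 1383 CPM in 3XKO and 898 to 1091 CPM in 3XKO control. Macrophage markers, led by Csf1r, Mrc1 and C1qc, summed to 102 to 108 CPM in Dmrt2 KO and 96.3 to 108 CPM in Dmrt2 control, and to 105 to 118 CPM in 3XKO and 116 to 144 CPM in 3XKO control. In 3XKO, 5 of the 7 macrophage markers had an unadjusted p under 0.05, with a median log2 fold change of -0.31 over the list, and DESeq2 called Csf1r, C1qa and C1qb lower, whereas Mrc1 was at 0.26 (edgeR, adjusted p = 0.148). Megakaryocyte markers, listed because platelets carry fibrinogen, and led by Itga2b, Pf4 and Gp1ba, summed to 12.3 to 14.7 CPM in Dmrt2 KO and 12.5 to 15.9 CPM in Dmrt2 control, and reached 15.2 CPM in 3XKO and 14.1 CPM in 3XKO control. Adrenal markers, led by Star, Mc2r and Cyp11a1, summed to 6.25 to 7.49 CPM in Dmrt2 KO and 5.78 to 8.11 CPM in Dmrt2 control, and to 6.32 to 7.22 CPM in 3XKO and 6.01 to 7.43 CPM in 3XKO control. Proximal tubule markers, led by Slc34a1, Lrp2 and Slc22a6, summed to 3088 to 3522 CPM in Dmrt2 KO and 2957 to 3844 CPM in Dmrt2 control, and to 3520 to 3653 CPM in 3XKO and 3232 to 3782 CPM in 3XKO control. In the Hmx3; Hmx2 line, erythroid markers summed to 900 to 1720 CPM in KO and 836 to 1872 CPM in control, macrophage markers to 106 to 135 CPM in KO and 110 to 131 CPM in control, megakaryocyte markers to 11.7 to 14.4 CPM in KO and 12.2 to 15.8 CPM in control, adrenal markers to 5.83 to 7.54 CPM in KO and 5.85 to 7.61 CPM in control, and proximal tubule markers to 3121 to 4610 CPM in KO and 3473 to 4029 CPM in control. In each of KO replicates 1 to 3, 4 of 8 erythroid genes were lower than in each of KO replicates 4 to 6. In the same way 3 of 11 proximal tubule genes were higher and 1 of 5 megakaryocyte genes was lower. Of the 9 kidney markers 3 were higher and 2 lower, and of the macrophage and adrenal markers 0 were either. Of all tested genes, 18.3% were higher and 16.1% lower in this way. The part of any of these cell types in the member values was not tested.

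Genes were ranked by how closely their deviations from the group mean ran to those of a member. The ranking covered 15041 genes with a mean of at least 1 CPM, by Pearson's r over 24 libraries that share their depth and tables. In the Hmx3; Hmx2 line the group mean was taken within each deposited table, so level differences between its tables did not enter r. For Fgb the closest genes were Lrrc15 (0.75), Chn2 (0.75), Gm15542 (0.74), Xpnpep2 (0.74) and Depdc1b (0.74). Their r lay between 0.57 and 0.74 once the 2 libraries farthest from the median of Fgb were left out. For Alb they were Cacna1b (0.85), Tmem35b (0.79), Actr10 (0.79), Nsmce2 (0.79) and Cdhr4 (0.77), and r was 0.66 to 0.76 without Hmx3; Hmx2 control replicates 3 and 6. For Serpina1a they were Dnaja4 (0.83), Sh3bp5 (0.82), Crbn (0.78), Cttn (0.78) and Rdh19 (0.78), and r was 0.71 to 0.81 without the 2 farthest libraries. No other member was among these genes. Fgg, Apoa1 and Serpina1d, with means of 0.389, 0.925 and 0.472 CPM, were below the minimum of 1 CPM and could not be listed.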

How the data were processed

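The values analysed are raw read counts per gene, deposited by the authors in 4 tables of 54393 genes each, with the Hmx3; Hmx2 replicates 1 to 3 and 4 to 6 in separate tables. Per the submitters' processing notes, fastp 0.20.1, STAR 2.7.0e and the mm39 build were used. Counting was by featureCounts with the GENCODE vM29 annotation, in version 2.0.3 per the file headers and 2.0.1 per the processing notes. The headers list no option for strand, multi-mapping reads or overlapping genes, so reads were counted without regard to strand and antisense partners cannot be told apart. Tables held 2 columns that match no sample and were not used.

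Counts were tested in edgeR 4.0.16 under R 4.3.3 (TMM scaling, filterByExpr with a minimum count of 10 and a minimum total of 15, robust quasi-likelihood fit, Benjamini-Hochberg adjustment over all tested genes, calls at an adjusted p under 0.05), each knockout against its own controls. The fit of the Hmx3; Hmx2 line had the table as a term. CPM used total counts, and per kb values the exonic length in the tables. Each SE was taken as the size of a log2 fold change over the root of its F statistic. DESeq2 1.42.0 and the other settings of the closing section were alternatives. The steps were tested on simulated counts. No 2 libraries of a group agreed within sampling noise (24 pairs, chi-square per degree of freedom 5.61 to 29.7).

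Named genes were the 9 members, from each of 12 lists every called gene or else the 3 with the highest mean CPM, the fibrinogen neighbours within 500 kb that passed the Dmrt2 filter, the 5 genes most like Fgb, Alb and Serpina1a, and Dmrt2, Hmx2 and Hmx3. Il6st, Stat3, Socs3, Apob, Serpina3k, Cyp3a11, Cyp3a16, Otc, Tat, Tdo2, Hpd and genes called by DESeq2 alone are named beyond this rule, after their values were seen. The members and the lists were chosen with earlier results of these data known. The replicate numbers were not taken as pairs. Some results of the lists and of the promoter search are not reported here.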

Additional observations from a re-analysis of the deposited data

Results flagged for a closer look

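Fgb had a log2 fold change of 1.18 in Dmrt2 KO and of -0.66 in the libraries labelled 3XKO, where Dmrt2 transcript was not lower. Every Dmrt2 KO library lay above its controls and every 3XKO library lay below its own, and the difference between the 2 effects was not tested, since Fgb was chosen on the first of them. Its neighbour Rbm46 showed the reverse, with -1.73 in Dmrt2 KO and 1.20 in 3XKO, likewise not tested. In 3XKO the lowest library and the highest control of Rbm46 were nearly equal, both 1.40 CPM as rounded.

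A library stood far from the other 5 of its group in 2 of 20 sets of 6 libraries. In sets drawn from 1 normal population, chance gives such a gap in about 1 set in 20. That rate need not hold here, since each set joins libraries of the 2 Hmx3; Hmx2 tables. Serpina1a was at 11.5 CPM in Hmx3; Hmx2 control replicate 2, and Rbm46 was at 1.86 CPM in Hmx3; Hmx2 control replicate 1. Both libraries are among the 5 that stood apart by many of their liver-type transcripts.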

How the results depend on the processing

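In the Hmx3; Hmx2 comparison no member was called under any of 24 alternatives, leaving out a library included, and 186 of 210 values kept their sign or their number. The other 24 changed sign, all of uncalled members, with values after the change of -0.04 to 0.46. A minimum mean of 1 CPM gave 0.01 for Apoa1, counts halved and rounded up gave 0.07 for Apoa1, and a fit without the table term gave 0.20 for Alb, 0.21 for Apoa1 and 0.00 for Serpina1d. Replicates 1 to 3 alone gave 0.11 for Fga, 0.30 for Alb, 0.46 for Apoa1 and 0.19 for Serpina1d, and replicates 4 to 6 alone gave -0.04 for Fgg. Leaving out 1 library gave ranges of -0.15 to 0.04 for Fga, -0.14 to 0.04 for Fgb, -0.59 to 0.40 for Alb, -0.19 to 0.01 for Afp, -0.28 to 0.30 for Apoa1 and -0.40 to 0.04 for Serpina1d. Genes called moved to 2 with the minimum of 1 CPM, with replicates 1 to 3 alone and with replicates 4 to 6 alone, and stayed at 4 without any 1 library. The interaction between table and genotype gave 1 gene by DESeq2, 3 without a filter and 0 to 1 when 1 library was left out.

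Of all genes, 434 by DESeq2, 676 without a filter, 13 with Y-linked transcripts as a term, 54 without chromosome 3 genes and 26 to 195 without 1 library were called in Dmrt2 KO. Members called there, a description since the members were chosen on it, were 2 without a filter, 0 with Y-linked transcripts as a term, 0 without chromosome 3 genes, where Fgb is left out by construction, and 0 to 1 without 1 library. In 3XKO, 1077 genes by DESeq2, 1510 without a filter, 573 in a single fit of all 24 libraries and 20 to 438 without 1 library were called. Members called there, likewise a description, were 4 by DESeq2, 3 without a filter, 0 in the single fit, 0 with Y-linked transcripts as a term and 0 to 0 without 1 library. The cause was not tested.

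Same-numbered KO and control libraries deviated together only weakly in Dmrt2 (r of 0.08 to 0.13). They did not do so in every pair of Hmx3; Hmx2 (-0.06 to 0.30) or in any pair of 3XKO (-0.37 to -0.19), so the numbers were not taken as a pairing. With the replicate number as a block, 80, 5 and 51 genes and 1, 0 and 0 members were called in Dmrt2, Hmx3; Hmx2 and 3XKO, Alb became 0.21 and Apoa1 0.10 in Hmx3; Hmx2, and Plat, Fgl1, Fgl2 and Hp were not called in 3XKO (adjusted p = 0.110, 0.122, 0.0607 and 0.0509, edgeR).

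Few reads limit Fgg, Serpina1d and Apoa1, and near-identical copies limit the Serpina1 genes. RLE scaling moved none of the counts of called genes by over 1.5 times. The added alternatives (gene lists with replicates 1 to 3 or 4 to 6 alone, KO libraries of the 2 tables side by side, and every setting for Rbm46, Plat, Fgl1, Fgl2 and Hp) were chosen after seeing the data, as were the member levels without the 5 libraries apart.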
